A study of Mus musculus with 12 samples.

Results

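The genes described here are those whose transcripts were most depleted when HT22 cells, an immortalised mouse hippocampal neuronal line, were given the iron chelator deferoxamine (DFO). Genes were selected on their siControl and siControl+DFO values alone. A gene was chosen when its mean siControl level was at least 2 FPKM, when each siControl+DFO library lay below each siControl library, and when the siControl+DFO mean was at most 25% of the siControl mean, with names starting Hist, Snor or Mir left out. FPKM, in which fragments are scaled per kilobase of transcript and by mapped fragments, is a level corrected for transcript length and library size. The selection kept 109 of 24343 gene names, of which RefSeq classes 101 as protein coding and 8 as long noncoding RNA. They include Lrrc17, a secreted leucine-rich repeat protein known to restrain osteoclast formation, and Mfap4, a microfibril-associated glycoprotein that binds elastin and collagen. Total RNA was sequenced from 12 libraries in 4 groups of 3 biological replicates. siControl cells received control siRNA and siNCOA4 cells received Ncoa4 siRNA, both delivered with liposomes, and siControl+DFO and siNCOA4+DFO cells received the same siRNA and 100 µM DFO for 24 h. All groups are the same cell line, and every group carries an siRNA transfection.

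DFO, which does not readily cross the cell membrane, binds iron in the medium and so lowers the supply that cells can take up. NCOA4 is the receptor that carries ferritin, the iron store, to the lysosome, where its iron is set free, a process called ferritinophagy. Among the many proteins that need iron are the prolyl and lysyl hydroxylases of collagen chains and the oxygen-dependent hydroxylases that mark hypoxia-inducible factors for removal. Matrix genes, growth factor receptors and homeodomain factors of the kind seen among the 109 are commonly high in mesenchymal cells and fibroblasts.

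The siRNA target was low in all siNCOA4 libraries. Ncoa4 was at 6.46, 6.19 and 6.02 FPKM in siControl and at 0.77, 0.952 and 0.891 in siNCOA4, and at 8.70, 8.31 and 7.52 in siControl+DFO against 0.85, 1.29 and 1.57 in siNCOA4+DFO. Tfrc, the transferrin receptor whose mRNA is known to be stabilised when iron is scarce, had means of 70.3 and 72.0 FPKM in siControl and siNCOA4 and of 328 and 240.2 FPKM with DFO. The neuronal label was only partly borne out by markers: 10 of 14 neuronal genes averaged below 0.5 FPKM in siControl, among them Rbfox3, Map2 and Snap25 at 0. Camk2a, Tubb3, Syn1 and Dlg4 were above that level, at 0.585, 7.77, 5.52 and 13.3 FPKM. In siControl+DFO these genes were at 0.0903, 12.5, 5.32 and 7.68 FPKM. The summed level of the neuronal genes ranged from 25.4 to 29.9 FPKM in siControl and 21.7 to 27.6 in siNCOA4. With DFO it ranged from 24.8 to 26.9 in siControl+DFO and 19.25 to 24.7 in siNCOA4+DFO. Fibroblast markers were abundant, and their summed level ranged from 3403 to 3895 FPKM in siControl, 2505 to 2756 in siNCOA4, 2054 to 2179 in siControl+DFO and 1882 to 2079 in siNCOA4+DFO. Of those 12 markers, Col1a1, Col3a1, Pdgfra, Pdgfrb, Dcn and Acta2 are themselves among the 109, and the other 6 are outside them. From siControl to siControl+DFO, the means of those outside went from 1002 to 318 FPKM for Col1a2, from 1.55 to 0.401 for Postn, from 0.348 to 0 for Lum, from 12.5 to 8.64 for Thy1, from 280 to 232 for Fn1 and from 1600 to 1412 for Vim. The part of the fibroblast markers in the values of the 109 was not tested. The 5 astrocyte markers averaged below 0.5 FPKM in siControl, and of 5 microglial markers only Tmem119, which is among the 109, was above that level. In bulk RNA, fewer cells of a kind and less RNA per cell cannot be told apart.

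**Figure D1:**
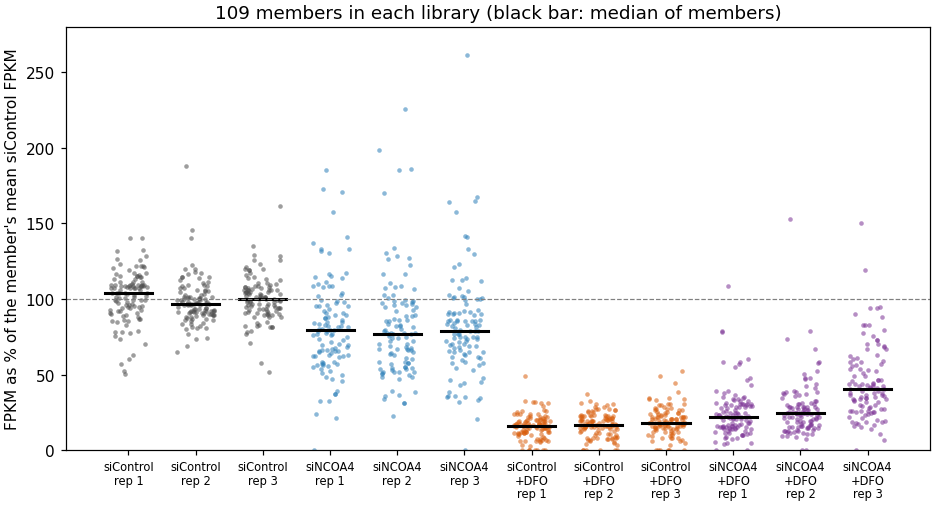
FPKM of each of the 109 genes in each library, as a percentage of that gene's own mean in siControl, with the median of the genes as a black bar. The siControl+DFO medians lie between 16.1 and 18.3%, and siNCOA4+DFO replicate 3, at 40.7%, stands above replicates 1 and 2, at 22.2 and 24.4%.

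Among the DFO libraries, siNCOA4+DFO replicate 3 stood apart. The FPKM of the 109 genes summed to between 2193 and 2339 in siControl, between 1557 and 1692 in siNCOA4 and between 383 and 464 in siControl+DFO, but to 519, 559 and 870.2 in siNCOA4+DFO replicates 1 to 3. Of the 109 genes, 86 were highest of their group in replicate 3, as were 36.6% of all genes tested. Ncoa4 and Tfrc were also highest in this library within the group. Several counts that rest on siNCOA4+DFO are therefore given with and without it, and the others include it. Whether the Ncoa4 level has a part in this was not tested.

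Of the 8 long noncoding RNAs, Dnm3os, C430049B03Rik and Lincppara span genes of well-known microRNAs, small RNAs that pair with mRNAs chiefly through the seed at bases 2 to 8. Dnm3os (chr1:162217623-162225550, GRCm38, plus strand, within the Dnm3 gene on the opposite strand) spans Mir199a-2 and Mir214, C430049B03Rik (chrX:53053112-53057190, minus strand) spans Mir351, Mir503 and Mir322, and Lincppara (chr15:85703773-85707524, plus strand) spans Mirlet7c-2 and Mirlet7b. Their mature sequences from RefSeq (GRCm38.p6) are shown 5′ to 3′ with the seed in capitals, because they identify which microRNA families lie inside transcripts that DFO depleted.
miR-199a-5p: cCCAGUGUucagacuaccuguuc
miR-199a-3p: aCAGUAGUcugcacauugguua
miR-214-3p: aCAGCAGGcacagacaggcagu
miR-351-5p: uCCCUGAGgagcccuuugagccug
miR-503-5p: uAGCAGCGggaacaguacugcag
miR-322-5p: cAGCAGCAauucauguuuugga
let-7c-5p: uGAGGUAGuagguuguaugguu
let-7b-5p: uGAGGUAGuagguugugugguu
The seeds of let-7c-5p and let-7b-5p are the same, and those of miR-503-5p and miR-322-5p differ only in their last base. Mature forms were not measured, and each of these microRNA genes is above 0 FPKM in at most 1 of the 12 libraries.

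Promoter windows of 300 bases, from 250 before to 50 after a RefSeq start (GRCm38.p6), were at hand for 77 of the 109 genes, 70.6%, which is under the 80% needed for a share over the set, so no share of motifs is given for it. The windows of Lrrc17, Slc1a3 and Ogn, 3 of the 12 genes with the lowest share left, are printed 5′ to 3′ on the gene's strand, to show what lies before genes that went down together. Capitals mark matches, on either strand, to any of a set of short motifs, all spelled out after the windows.
Lrrc17 (chr5:21543277-21543576, plus strand): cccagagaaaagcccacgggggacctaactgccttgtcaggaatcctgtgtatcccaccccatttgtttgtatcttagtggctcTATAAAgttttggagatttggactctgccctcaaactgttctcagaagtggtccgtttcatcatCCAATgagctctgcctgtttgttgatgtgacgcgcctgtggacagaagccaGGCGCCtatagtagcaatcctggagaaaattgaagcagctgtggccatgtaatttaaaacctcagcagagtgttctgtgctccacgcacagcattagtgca
Slc1a3 (chr15:8710758-8711057, minus strand): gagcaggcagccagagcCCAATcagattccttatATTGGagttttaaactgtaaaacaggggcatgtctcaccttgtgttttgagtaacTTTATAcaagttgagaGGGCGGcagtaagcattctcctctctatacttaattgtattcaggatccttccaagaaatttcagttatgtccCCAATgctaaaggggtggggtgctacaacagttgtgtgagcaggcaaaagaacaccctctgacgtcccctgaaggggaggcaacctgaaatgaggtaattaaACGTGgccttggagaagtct
Ogn (chr13:49607765-49608064, plus strand): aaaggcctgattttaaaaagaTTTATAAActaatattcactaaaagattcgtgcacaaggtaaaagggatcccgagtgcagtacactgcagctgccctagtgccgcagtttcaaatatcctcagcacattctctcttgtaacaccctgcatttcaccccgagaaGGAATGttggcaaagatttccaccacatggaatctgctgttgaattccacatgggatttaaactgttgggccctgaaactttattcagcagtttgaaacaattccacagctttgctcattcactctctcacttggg
The TATA box was searched as TATAAA at any position, which is in all 3 windows and in 13.6% of the 32851 promoter windows in the table. Elsewhere among the 12 genes, Ly6c1 and Cela1 also had a window with it. No window of Gm19705, Dynlt1f, Bmf, Tle2 or Kif26b held it, so the 3 printed windows do not stand for the 12 in this motif. Whether a match lies where a working TATA box would was not tested. The CCAAT box is in the windows of Lrrc17 and Slc1a3 and in 37.4% of all. The GC box, searched as GGGCGG, is in the Slc1a3 window and in 35.7% of all. The core of the hypoxia response element, searched as ACGTG, is in the Slc1a3 window and in 19.6% of all. The TEAD motif GGAATG is in the Ogn window and in 14.7% of all, and GGCGCC is in the Lrrc17 window and in 11.9% of all. The other motifs searched were ATCAAAG for TCF (3.73% of all windows), TGACTCA for AP-1 (5.2%) and CACGTG, an E-box that overlaps the hypoxia motif (7.15%), and none of these 3 windows held them. These are letter matches only. Mfap4 has no entry in the table.

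Across the 109 genes, siControl+DFO retained a median of 18.3% of the siControl level, with quartiles of 14.01 and 21.67%, and these values chose the genes and carry no test. Of all 11924 genes that passed the filter on low values, 29.6% had every siControl+DFO library below every siControl library. All 109 passed that filter, which asks for 0.5 FPKM or more in 3 libraries or more, as a siControl mean of 2 FPKM nearly ensures. Their siControl means had a median of 8.82 FPKM, 52 were at 10 FPKM or more, 36 were below 5 FPKM, and 2, Col1a1 and Col3a1, were above 100. Just inside the limit of 25% lay Ttyh3 at 24.7% and Unc5c at 24.7%, and just outside it Mgst1 at 25.1%, Capn6 at 25.1% and Akr1c12 at 25.1%. At the lower limit of expression, Agt, Gm19705 and Acta2 had siControl means of 2.00, 2.03 and 2.06 FPKM, while E230016K23Rik, Hdac9 and Fgf10, at 1.98, 1.96 and 1.89, stayed outside. The longest GENCODE transcripts of 108 of the genes had a median GC content of 53.2%, against 49.5% for the genes tested, and a median length of 2957 against 3296 bases.

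Whether the loss recurs when Ncoa4 is depleted was asked in the siNCOA4 and siNCOA4+DFO libraries, which the selection did not use. In siNCOA4+DFO, the genes retained a median of 36.4% of their siNCOA4 level, with quartiles of 28.9 and 49.5%, while the median over all genes tested was 99.7%. The share left was at most 25% in 10 genes, at most 50% in 83 and above 50% in 26, and only Kazald1 exceeded 100%. Without siNCOA4+DFO replicate 3 the median was 31.7%, and 33 and 96 genes were at or under 25 and 50%. The test was limma's, applied to log2(FPKM + 0.1), a scale that understates changes of low genes, with p-values adjusted by the Benjamini-Hochberg method over all genes tested. A gene is called lower here when its adjusted p was below 0.05 and it was more than 2-fold lower. Of the 109 genes, 79 were called lower in siNCOA4+DFO than in siNCOA4, or 72.5%, against 3.83% of all genes tested, and 0 were called higher, against 905 of all genes. The gene lists named with each role are to be read beside these shares and were drawn up with the members known. With siNCOA4+DFO replicate 3 left out, the count was 88, and with replicate 1 left out it was 66. The fit took its spread from all 12 libraries, including the siControl and siControl+DFO libraries that chose the genes. Fitted on the 6 siNCOA4 libraries alone, 77 of the 109 genes and 442 of all genes were called lower. The fold change was more negative without replicate 3 in 95 genes. The log2 fold change was negative for all 109 genes, with a median of -1.46 and quartiles of -1.83 and -1.05, where the median over all genes tested was -0.0035. By adjusted p alone, 86 genes were lower, or 78.9%, against a background of 19.6%. Every siNCOA4+DFO library lay below every siNCOA4 library for 90 genes, or 82.6%, against 25.1% of all genes tested. With 3 libraries against 3, an exact permutation test of a single gene cannot give a two-sided p below 0.1.

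**Figure D2:**
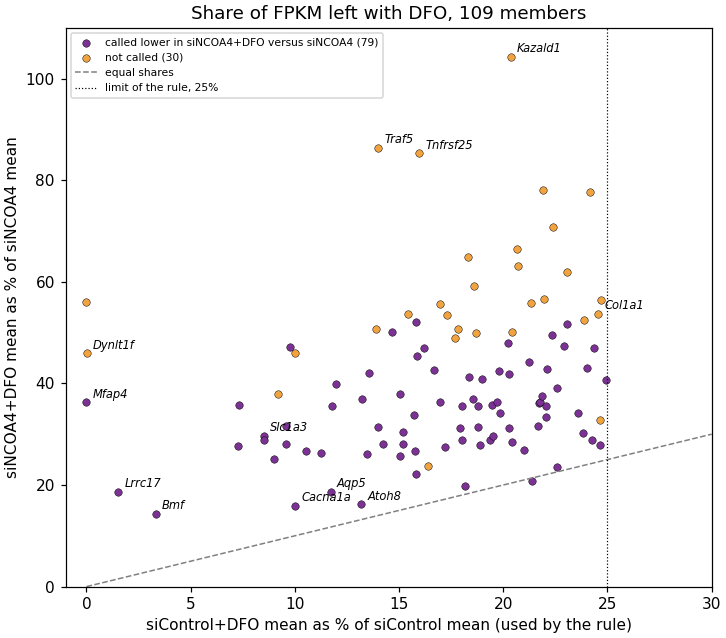
Share of FPKM left with DFO in siControl cells (horizontal axis, used for selection) and in siNCOA4 cells (vertical axis), for the 109 genes, with the 79 called lower in siNCOA4+DFO in purple and the other 30 in orange. All but 1 gene lie above the dashed line of equal shares, on which selection fixed the horizontal value to be low, and Kazald1, Traf5 and Tnfrsf25 lie highest.

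The share left was larger in siNCOA4 than in siControl cells for 108 genes, and for 101 without siNCOA4+DFO replicate 3. Since the genes were picked for a low share in siControl cells, a larger share elsewhere is partly set by the choice, and this difference was not tested. The exception was Plk1, the kinase that drives entry into and exit from mitosis, with 21.4% left in siControl and 20.8% in siNCOA4 cells.

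**Figure D3:**
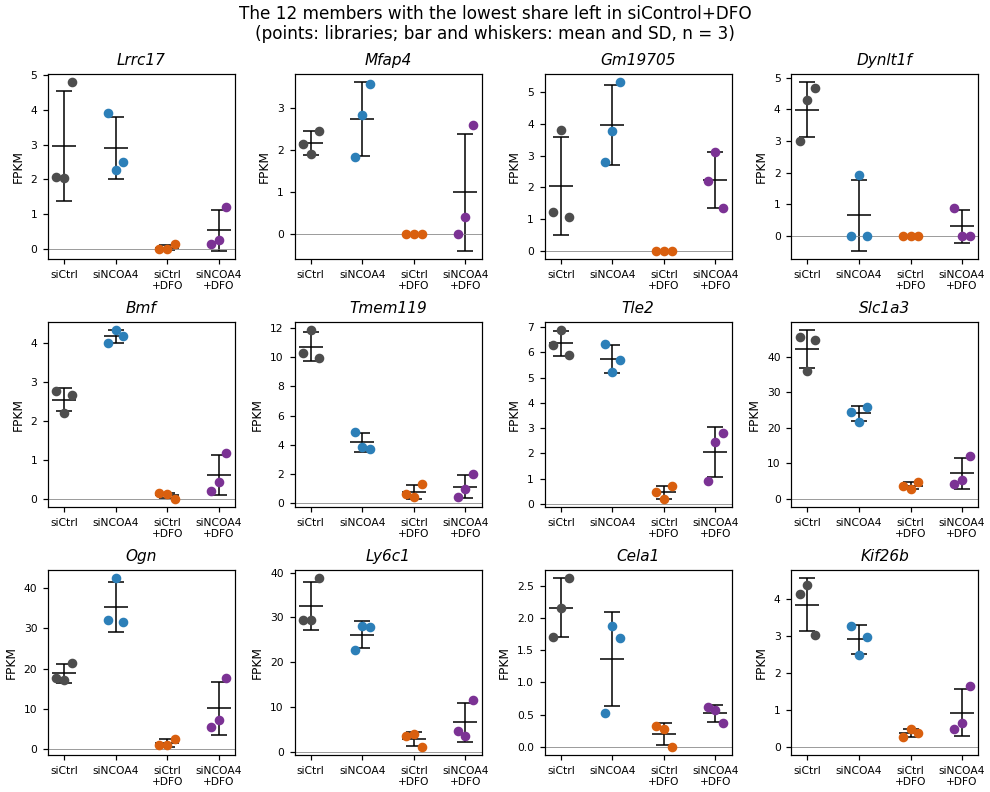
FPKM of the 12 genes with the lowest share left in siControl+DFO, by library (points), with the mean and SD of each group (n = 3). In Lrrc17, Mfap4, Slc1a3 and Ogn the siNCOA4+DFO replicate 3 point lies above the other 2, and in Bmf and Ogn the siNCOA4 points lie above the siControl points.

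The extracellular matrix and its associated secreted proteins made up 13 of the genes, of which 8 were called lower in siNCOA4+DFO (median log2 fold change of the 13, -1.25). Mfap4 was at 2.15, 1.90 and 2.45 FPKM in siControl and at 1.83, 2.83 and 3.57 in siNCOA4. It was listed at 0 in all 3 siControl+DFO libraries, and at 0, 0.399 and 2.59 in siNCOA4+DFO, where replicate 3 overlapped the siNCOA4 values. It fell by 2.42 on the log2 scale in siNCOA4+DFO relative to siNCOA4 (standard error 0.85, adjusted p = 0.0367), and the change was -3.62 without replicate 3. This call was not firm: the adjusted p was 0.05 or more in 9 of 20 alternative fits, over which it ran from 0.000565 to 0.121, and it was lost without any 1 of the siNCOA4 libraries (-2.68, -2.38 and -2.22 without replicates 1, 2 and 3) and without siNCOA4+DFO replicate 1 (-1.25) or 2 (-2.41). The Mfap4 call was also lost in the fit of the 6 siNCOA4 libraries alone (adjusted p = 0.103). Lrrc17 was at 2.08, 2.04 and 4.79 FPKM in siControl, 3.92, 2.28 and 2.499 in siNCOA4, 0, 0 and 0.136 in siControl+DFO and 0.144, 0.267 and 1.21 in siNCOA4+DFO. Both DFO groups lay wholly below both groups without DFO, and Lrrc17 fell by 2.58 in siNCOA4+DFO (standard error 0.61, adjusted p = 0.00456). Lrrc17 lies at chr5:21543527-21575911 within Fbxl13, and Mfap4 at chr11:61485431-61488708 next to Mapk7, which overlaps it in GENCODE, both on the opposite strand, so that without counting by strand, which the sources used here do not state, reads of such pairs cannot be told apart. The same holds for 35 of the 109 genes that an antisense gene overlaps.

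Ogn, osteoglycin, a small leucine-rich proteoglycan that binds collagen fibrils, differed from most in siNCOA4. It was at 17.6, 17.3 and 21.5 FPKM in siControl, 32.0, 42.4 and 31.5 in siNCOA4, 1.16, 0.985 and 2.67 in siControl+DFO and 5.66, 7.27 and 17.7 in siNCOA4+DFO. Its siNCOA4 libraries lay above all siControl libraries, and siNCOA4+DFO replicate 3 reached the siControl range. It fell by 1.95 in siNCOA4+DFO relative to siNCOA4 (standard error 0.39, adjusted p = 0.00173). Dcn, decorin, of the same family, was at 4.595, 6.09 and 5.87 FPKM in siNCOA4 and 1.86, 3.97 and 7.10 in siNCOA4+DFO and was not called (-0.53, adjusted p = 0.292), nor was Prelp (-0.95, adjusted p = 0.14). Of 9 small leucine-rich proteoglycans tested, 2 were called lower (Ogn and Aspn) and 2 higher (Ecm2 and Podn), with a median log2 fold change of -0.70.

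The fibrillar collagens were the most abundant of the 109 by FPKM. Col1a1, the main chain of type I collagen, was at 439, 374 and 337 FPKM in siControl, 254, 198 and 215 in siNCOA4, 73.4, 102 and 107 in siControl+DFO and 108, 118 and 132 in siNCOA4+DFO. The 4 groups did not overlap, and the order from high to low was siControl, siNCOA4, siNCOA4+DFO and siControl+DFO. Within siNCOA4 cells the decline was less than 2-fold (-0.89, standard error 0.15, adjusted p = 0.000469), so Col1a1 was not called. Col3a1, of type III collagen, was at 245, 203 and 228 FPKM in siNCOA4 and 71.0, 89.2 and 127 in siNCOA4+DFO and was called lower (-1.27, standard error 0.17, adjusted p = 8.07e-05). Of 9 fibrillar collagen genes tested, Col3a1 alone was called lower and Col2a1 alone higher, with a median of -0.16. Col2a1 was low, at means of 0.101 FPKM in siNCOA4 and 1.93 in siNCOA4+DFO. Among the other matrix members, Emilin1, an elastic fibre glycoprotein, fell by 1.90 (adjusted p = 4.25e-06), Spon2, spondin 2, by 1.64 (adjusted p = 0.00534) and Adamts5, an aggrecan-cleaving protease, by 1.03 (adjusted p = 0.00198), though the Adamts5 change was under 2-fold without siNCOA4+DFO replicate 1 (-0.80) or 2 (-0.93). Mgp, an inhibitor of calcification, was at 1.65, 5.09 and 2.59 FPKM in siNCOA4 and 2.61, 1.22 and 2.37 in siNCOA4+DFO, ranges that overlapped, and was not called (-0.49, adjusted p = 0.477). Of 30 matrix glycoproteins tested, 8 were called lower and 0 higher, with a median of -0.45. Those that are not among the 109 were Ccdc80, Thbs1, Thbs3, Olfml3 and Igfbp7.

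Ligands, receptors and their adaptors numbered 15, and 11 were called lower in siNCOA4+DFO (median -1.49). Pdgfra and Pdgfrb, the receptor kinases for platelet-derived growth factors, were both in the set. Pdgfra was at 21.7, 18.5 and 20.4 FPKM in siControl, 12.5, 13.3 and 13.2 in siNCOA4, 3.89, 3.46 and 4.15 in siControl+DFO and 2.98, 3.73 and 9.25 in siNCOA4+DFO. Pdgfrb was at 27.99, 24.8 and 24.1 FPKM in siControl, 12.01, 12.01 and 11.95 in siNCOA4, 3.10, 2.59 and 3.53 in siControl+DFO and 3.52, 4.28 and 6.54 in siNCOA4+DFO. In both genes the siNCOA4 libraries lay between siControl and the DFO groups without overlap. Pdgfrb fell by 1.36 (standard error 0.19, adjusted p = 0.00013) and Pdgfra by 1.45 (standard error 0.30, adjusted p = 0.00204) in siNCOA4+DFO. Of 5 PDGF ligands and receptors tested, these 2 were called lower and the ligand gene Pdgfa higher, with a median of -1.25.

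Ptn, pleiotrophin, a heparin-binding growth factor, was at 67.4, 73.8 and 88.9 FPKM in siControl, 51.2, 44.5 and 53.7 in siNCOA4, 13.3, 12.7 and 13.8 in siControl+DFO and 21.4, 18.2 and 40.5 in siNCOA4+DFO. Its siNCOA4+DFO libraries lay below the siNCOA4 libraries but above those of siControl+DFO, and its fold change stayed just under 2 (-0.98, standard error 0.23, adjusted p = 0.00391). Gas1, a membrane-anchored co-receptor for Hedgehog ligands, was at 42.5, 37.5 and 43.8 FPKM in siNCOA4 and 9.46, 8.20 and 17.0 in siNCOA4+DFO and fell by 1.90 (standard error 0.20, adjusted p = 1.58e-05). Irs1, the docking protein of the insulin receptor, fell by 1.49 (adjusted p = 3.1e-05), though 30.3% of its 75-base windows also occur in Gm9747. Of 21 growth factor and insulin-like genes tested, 4 were called lower, Irs1, Gas1, Igf1 and Igf2r. Called higher were 3, Irs2, Fgfr3 and Tek, and the median of the 21 was -0.03. Igf1, Fgfr3 and Tek were low, at means of 1.69, 0.0202 and 0 FPKM in siNCOA4 and 0.161, 0.565 and 0.962 in siNCOA4+DFO.

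Axon guidance, Wnt, BMP and Notch signalling each had members in the group. Sema3a, a repulsive axon guidance ligand, fell by 1.62 (adjusted p = 0.000358) and Unc5c, a netrin receptor, by 1.81 (adjusted p = 0.00106). Of 20 genes tested from a list of semaphorins, plexins, neuropilins, netrins and netrin receptors, 4 were called lower and 3 higher (median -0.09). Sema3a and Unc5c were the selected genes among those called lower. Of the 18 other genes of this list, Sema3f and Nrp2 were called lower and 3 higher (median 0.02). Fzd2, a Wnt receptor, was at 24.4, 23.8 and 20.04 FPKM in siControl, 18.1, 15.2 and 17.0 in siNCOA4, 2.74, 3.53 and 3.99 in siControl+DFO and 3.55, 3.51 and 5.86 in siNCOA4+DFO, with both DFO groups far below the others. Fzd2 fell by 1.97 (standard error 0.20, adjusted p = 9.12e-06), as did Prickle1, of the planar polarity pathway, by 1.83 (adjusted p = 0.0015). Of 30 genes of Wnt receptors, planar polarity and TCF/TLE factors tested, 5 were called lower and 1 higher (median -0.17). Of those 5, 4 were selected genes, Fzd2, Prickle1, Tle2 and Tle6. Among the 26 other genes of this list, Amer1 alone was called lower and Fzd5 alone higher (median -0.15). Rgma, a guidance molecule and BMP co-receptor, fell by 1.48 (adjusted p = 0.000111), and Lfng, the Fringe glycosyltransferase that modifies Notch, by 1.94 (adjusted p = 0.00394).

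Among the 15, 4 did not meet the threshold in siNCOA4 cells, Ptn, Traf5, Tnfrsf25 and Agt. Traf5, an adaptor of tumour necrosis factor receptors, was at 2.99, 3.58 and 4.98 FPKM in siControl, 2.16, 2.90 and 2.36 in siNCOA4, 0.785, 0.267 and 0.566 in siControl+DFO and 2.25, 1.11 and 3.05 in siNCOA4+DFO, so that the last group spanned siNCOA4 (-0.30, standard error 0.39, adjusted p = 0.567). Tnfrsf25, death receptor 3, was at 2.05, 1.41 and 1.11 FPKM in siNCOA4 and 1.41, 0.558 and 1.93 in siNCOA4+DFO (-0.32, standard error 0.47, adjusted p = 0.616). Agt, angiotensinogen, was already low at 0.738, 0.458 and 0.411 FPKM in siNCOA4, against 1.93, 2.92 and 1.16 in siControl, and was at 0.174, 0 and 0.209 in siNCOA4+DFO (-1.61, standard error 0.84, adjusted p = 0.144). The siNCOA4 and siNCOA4+DFO ranges overlapped for Traf5 and Tnfrsf25 but not for Agt.

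Of the 14 transcription factors and cofactors, 13 were called lower in siNCOA4+DFO, and all had an adjusted p below 0.05 (median -1.61). Atoh8, a basic helix-loop-helix factor, was at 18.9, 16.3 and 18.6 FPKM in siControl, 17.1, 16.6 and 17.8 in siNCOA4, 2.93, 1.90 and 2.26 in siControl+DFO and 3.06, 2.59 and 2.71 in siNCOA4+DFO. The siControl and siNCOA4 libraries overlapped, as did the libraries of both DFO groups, and it fell by 2.58 (standard error 0.15, adjusted p = 1.6e-07). Id3, an inhibitor of helix-loop-helix factors and a target of BMP signalling, was at 30.7, 41.8 and 34.0 FPKM in siControl, 20.4, 18.2 and 21.7 in siNCOA4, 5.36, 7.49 and 8.27 in siControl+DFO and 5.84, 8.14 and 6.601 in siNCOA4+DFO, and fell by 1.55 (standard error 0.17, adjusted p = 2.31e-05). Smad6, an inhibitory SMAD, fell by 1.82 (adjusted p = 0.00937). Of 18 genes of BMP receptors, SMADs and target factors tested, 4 were called lower, Rgma, Smad6, Id3 and Atoh8, all of which are among the 109, and Smad7 was called higher (median 0.01).

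Tle2 and Tle6, co-repressors of the Groucho family, adjoin each other on chromosome 10, where their RefSeq spans overlap by 1678 bases. Tle2 was at 6.30, 6.87 and 5.87 FPKM in siControl, 6.31, 5.23 and 5.68 in siNCOA4, 0.479, 0.203 and 0.709 in siControl+DFO and 0.914, 2.43 and 2.81 in siNCOA4+DFO, and the siNCOA4+DFO libraries all exceeded those of siControl+DFO. Tle2 fell by 1.57 (adjusted p = 0.00697) and Tle6 by 1.65 (adjusted p = 0.000716). Maml3, a Mastermind coactivator of Notch, fell by 1.69 (adjusted p = 5.03e-05). Of 10 Notch genes tested, Lfng and Maml3 were called lower and Dll4 higher (median 0.29). Dll4 was low, at means of 0.0252 FPKM in siNCOA4 and 0.747 in siNCOA4+DFO.

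Of 35 HOX and other homeodomain genes tested, 7 were called lower and 1 higher (median -0.60), and Hoxa2, Hoxa4, Hoxb5, Six5, Prrx2 and Emx2 were called lower outside the 109. Vdr, the vitamin D receptor, was at 10.4, 7.80 and 8.42 FPKM in siControl, 4.28, 3.38 and 3.85 in siNCOA4, 2.78, 1.37 and 2.24 in siControl+DFO and 2.03, 1.16 and 1.76 in siNCOA4+DFO. Its siNCOA4 libraries lay between siControl and the DFO groups, which overlapped each other, and it fell by 1.20 (adjusted p = 0.00298), but by less than 2-fold without siNCOA4+DFO replicate 2 (-0.98).

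Surface and adhesion proteins gave 15 genes, 12 of them called lower (median -1.42). Ly6a, also called Sca-1, a lipid-anchored protein of stem and mesenchymal cells, was at 88.8, 94.8 and 96.8 FPKM in siControl, 89.3, 79.9 and 77.7 in siNCOA4, 16.03, 18.5 and 17.5 in siControl+DFO and 28.5, 24.7 and 38.1 in siNCOA4+DFO. The DFO groups lay well below the rest, and siNCOA4+DFO above siControl+DFO without overlap. Ly6a fell by 1.46 (standard error 0.13, adjusted p = 4.01e-06). Ly6c1, of the same family and 46.0 kb from it on chromosome 15, was at 22.8, 28.01 and 27.8 FPKM in siNCOA4 and 4.63, 3.51 and 11.6 in siNCOA4+DFO and fell by 2.16 (adjusted p = 0.00189). Of the 75-base windows of Ly6c1 transcripts, 19.0% also occur in other genes, mainly Ly6c2. Of 6 LY6 family genes tested, 4 were called lower, Ly6e and Slurp1 besides these, and Plaur higher (median -1.25).

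Tmem119, a membrane protein used as a microglial marker but also made by osteoblasts, was at 10.3, 11.8 and 9.98 FPKM in siControl, 4.91, 3.88 and 3.72 in siNCOA4, 0.638, 0.407 and 1.29 in siControl+DFO and 0.457, 0.987 and 2.01 in siNCOA4+DFO. Its siNCOA4 values were already less than those of every siControl library, and it fell further by 1.97 with DFO (standard error 0.44, adjusted p = 0.00319). Pmp22, a tetraspan protein of peripheral myelin, was at 46.2, 46.2 and 45.8 FPKM in siControl, 35.6, 37.8 and 38.3 in siNCOA4, 7.40, 7.94 and 7.68 in siControl+DFO and 14.1, 13.2 and 20.3 in siNCOA4+DFO. The 4 groups did not overlap, and it fell by 1.25 (standard error 0.13, adjusted p = 1.18e-05). Pcdh18, a protocadherin, fell by 1.57 (adjusted p = 0.000257), but Pcdhb21 did not pass (-1.14, adjusted p = 0.0711). Of 39 protocadherins tested, Pcdh18 alone was called lower and 0 higher (median -0.51).
Eva1b, a membrane protein of the EVA1 family, went lowest when both treatments were combined. It was at 38.9, 46.5 and 43.0 FPKM in siControl, 16.8, 13.4 and 16.4 in siNCOA4, 10.1, 9.92 and 8.90 in siControl+DFO and 6.78, 5.38 and 6.10 in siNCOA4+DFO, and the 4 groups did not overlap. It was the only gene of the 109 with all siNCOA4+DFO libraries below all siControl+DFO libraries, or 0.917%, where 20.1% of all genes tested had that order. The genes were picked for low siControl+DFO values, which works against this order, so the 2 shares are a description. Eva1b fell by 1.34 in siNCOA4+DFO relative to siNCOA4 (standard error 0.12, adjusted p = 4.4e-06).

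Transporters and channels were 5, of which 3 were called lower. Slc1a3, the glutamate and aspartate transporter GLAST best known from astrocytes, was at 45.6, 36.1 and 44.7 FPKM in siControl, 24.5, 21.7 and 25.9 in siNCOA4, 3.49, 2.64 and 4.65 in siControl+DFO and 4.13, 5.22 and 12.05 in siNCOA4+DFO. The siNCOA4 libraries formed a separate intermediate level, and Slc1a3 fell by 1.89 with DFO in these cells (standard error 0.32, adjusted p = 0.000444). Its gene list held 9 tested genes from families that include neurotransmitter transporters, not all of which carry neurotransmitters. Of these, Slc1a3 alone was called lower, and 6 were called higher, Slc1a1, Slc1a4, Slc1a5, Slc6a8, Slc6a9 and Slc29a4 (median 1.17). Slc1a1 and Slc29a4 were low, at means of 0.202 and 0.0315 FPKM in siNCOA4 and 2.11 and 1.85 in siNCOA4+DFO. Cacna1a, the pore of P/Q-type calcium channels, was at 11.3, 10.1 and 11.2 FPKM in siControl, 9.06, 8.82 and 9.26 in siNCOA4, 1.29, 1.11 and 0.872 in siControl+DFO and 1.23, 1.35 and 1.75 in siNCOA4+DFO. All DFO libraries lay far below all others, and it fell by 2.58 (standard error 0.18, adjusted p = 4.96e-07). Of 8 voltage-gated calcium and sodium channel genes tested, 2 were called lower, Cacna1a and Scn3a, and 1 higher (median -0.43). Aqp5, a water channel, was at 16.5, 16.4 and 19.3 FPKM in siNCOA4 and 1.26, 1.94 and 6.54 in siNCOA4+DFO and fell by 2.73 (standard error 0.44, adjusted p = 0.000376).

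Of 11 metabolic and glycosylation enzymes, 10 were called lower (median -1.51), the exception being Mgat3 (-0.79, adjusted p = 0.12). Gstm1, a glutathione transferase, was at 57.5, 59.9 and 59.9 FPKM in siControl, 37.2, 39.6 and 40.7 in siNCOA4, 15.1, 11.4 and 12.1 in siControl+DFO and 14.4, 9.51 and 18.8 in siNCOA4+DFO, and fell by 1.51 (standard error 0.19, adjusted p = 5.09e-05). Aldh3a1, an aldehyde dehydrogenase, was at 11.1, 9.87 and 12.5 FPKM in siControl and 3.62, 3.74 and 4.01 in siNCOA4, then at 1.28, 0.905 and 1.34 in siControl+DFO and 0.61, 1.69 and 0.732 in siNCOA4+DFO. Both siNCOA4 and DFO went with lower Aldh3a1, which fell by 1.93 with DFO within siNCOA4 cells (standard error 0.30, adjusted p = 0.000272). Cyp1b1, a cytochrome P450, fell by 1.87 (adjusted p = 1.28e-05), and Gstm7, in the same gene cluster as Gstm1, by 1.77 (adjusted p = 0.00106). A list of glutathione transferases and xenobiotic enzymes also held Cyp39a1, a sterol enzyme. Of its 23 genes tested, 10 were called lower and 2 higher (median -0.89). Mgst1, Mgst2, Aldh3b1, Nqo1 and Cyp2d22 were those called lower outside the 109. Cyp39a1 was called lower (-1.01, adjusted p = 0.0255), but the call was lost in 4 of 20 alternative fits.

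The 5 cell cycle and nucleic acid enzymes were all called lower (median -1.87). Plk1 was at 36.7, 34.8 and 36.9 FPKM in siControl, 39.1, 32.1 and 40.7 in siNCOA4, 5.85, 8.41 and 8.91 in siControl+DFO and 9.59, 7.01 and 6.69 in siNCOA4+DFO. The groups with DFO overlapped each other, as did those without, and Plk1 fell by 2.26 (standard error 0.17, adjusted p = 1.04e-06). Pif1, a DNA helicase, fell by 1.87 (adjusted p = 0.0128, and 0.0506 without siNCOA4+DFO replicate 2) and Ankle1, a nuclease, by 1.75 (adjusted p = 0.000598). Mxd3, a member of the MAX dimerisation family counted among the transcription factors, fell by 1.71 (adjusted p = 0.000209). Of 32 mitotic kinases and late cell cycle genes tested, 10 were called lower, with Aurka, Bub1b, Kpna2, Cenpf, Kif20a and Ube2c outside the 109, and 2 higher, Plk2 and Plk3 (median -0.55).

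Bmf, a BH3-only protein that promotes apoptosis, was the largest fall among the genes called. It was at 2.77, 2.21 and 2.67 FPKM in siControl, 4.01, 4.33 and 4.18 in siNCOA4, 0.137, 0.117 and 0 in siControl+DFO and 0.197, 0.424 and 1.18 in siNCOA4+DFO. The siNCOA4 libraries lay above all of siControl, and the DFO libraries of both kinds lay below every library without DFO. Bmf fell by 2.87 in siNCOA4+DFO (standard error 0.48, adjusted p = 0.000483). Of the other 2 genes of apoptosis and immune response, Apol6 was called lower (-1.05, adjusted p = 0.0329) and Trim30d was less than 2-fold lower (-0.96, adjusted p = 0.0154). The Apol6 call was lost in 7 of 20 alternative fits, with adjusted p from 0.00363 to 0.136 over all 20, among them those without siNCOA4 replicate 1 (-1.01) or 2 (-0.95) and without siNCOA4+DFO replicate 1 (-0.65) or 2 (-1.04).

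Cytoskeletal and polarity genes were 7, with 5 called lower (median -1.48). Kif26b, a kinesin family member, was at 3.27, 2.498 and 2.96 FPKM in siNCOA4 and 0.486, 0.636 and 1.65 in siNCOA4+DFO and fell by 1.72 (adjusted p = 0.0028). Dynlt1f, a dynein light chain gene, was at 3.01, 4.29 and 4.67 FPKM in siControl and near 0 in all siControl+DFO libraries, but also in siNCOA4 replicates 1 and 3 and in siNCOA4+DFO replicates 2 and 3. Of its 75-base windows 83.3% also occur in other genes, chiefly Dynlt1c, Dynlt1a and Dynlt1b, so its values are uncertain, and it was not called (-0.35, standard error 1.12, adjusted p = 0.831). Acta2, smooth muscle actin, was called lower (-1.40, adjusted p = 0.0484), but the call was lost in 13 of 20 alternative fits, with adjusted p from 0.0188 to 0.151 over all 20, and it was the 1 call lost when siNCOA4+DFO replicate 3 was left out.

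Of 4 proteases and protease inhibitors, 2 were called lower, Serpinb6b (-2.10) and Serpinb1a (-1.75), serpins 103.6 kb apart on chromosome 13. Cela1, an elastase, was at 1.70, 2.16 and 2.62 FPKM in siControl, 0.52, 1.88 and 1.70 in siNCOA4, 0.322, 0.274 and 0 in siControl+DFO and 0.614, 0.569 and 0.369 in siNCOA4+DFO and was not called (-1.10, adjusted p = 0.147). Among 10 noncoding or unnamed genes, 5 were called (median -1.14). Dnm3os was at 18.4, 14 and 14.7 FPKM in siControl, 13.6, 17.4 and 14.2 in siNCOA4, 2.85, 2.56 and 4.14 in siControl+DFO and 4.71, 3.87 and 13.01 in siNCOA4+DFO, and fell by 1.25 (standard error 0.35, adjusted p = 0.0126). The Dnm3os call was lost without siNCOA4+DFO replicate 1 (-1.06, adjusted p = 0.0528) or 2 (-0.92, adjusted p = 0.0568), and over all 20 alternative fits the adjusted p ran from 5.32e-05 to 0.0568. C430049B03Rik was at 26.7, 25.6 and 22.2 FPKM in siControl, 19.5, 19.2 and 17.4 in siNCOA4, 2.76, 2.18 and 2.34 in siControl+DFO and 5.69, 6.73 and 14.01 in siNCOA4+DFO, and fell by 1.19 (standard error 0.25, adjusted p = 0.00244), with a change of -0.94 without siNCOA4+DFO replicate 1. In both microRNA hosts siNCOA4+DFO replicate 3 was more than 2-fold above replicates 1 and 2. Gm19705, the other gene listed at 0 in every siControl+DFO library, was at 1.23, 3.82 and 1.05 FPKM in siControl, 2.79, 3.79 and 5.32 in siNCOA4 and 2.21, 3.11 and 1.35 in siNCOA4+DFO, with the last 2 overlapping (-0.83, adjusted p = 0.169). Lincppara, the let-7 host, was at 8.37, 9.42 and 8.997 FPKM in siNCOA4 and 3.95, 4.26 and 7.63 in siNCOA4+DFO and was not called (-0.81, adjusted p = 0.186).

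The other 7 named proteins gave 3 calls (median -0.91). Medag, a protein linked to fat cell differentiation, was at 35.5, 34.2 and 39.3 FPKM in siControl, 35.3, 35.2 and 36.2 in siNCOA4, 6.55, 4.89 and 5.797 in siControl+DFO and 5.498, 4.38 and 13.7 in siNCOA4+DFO, and fell by 2.35 (standard error 0.30, adjusted p = 6.6e-05), though 33.7% of its 75-base windows also occur in other genes. Calml4, a calmodulin-like protein, fell by 1.53 (adjusted p = 0.00711), and Gulp1, an engulfment adaptor, by 1.17 (adjusted p = 0.0157). The Gulp1 call was lost in 5 of 20 alternative fits, among them those without siNCOA4 replicate 2 (-0.94) and without siNCOA4+DFO replicate 1 (-1.02) or 2 (-0.88), with adjusted p from 0.000489 to 0.0690 over all 20. Not called were Pced1b, Nckap5, Dnajc22 and the calcium-binding S100a13 (-0.70, adjusted p = 0.156).

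**Figure D4:**
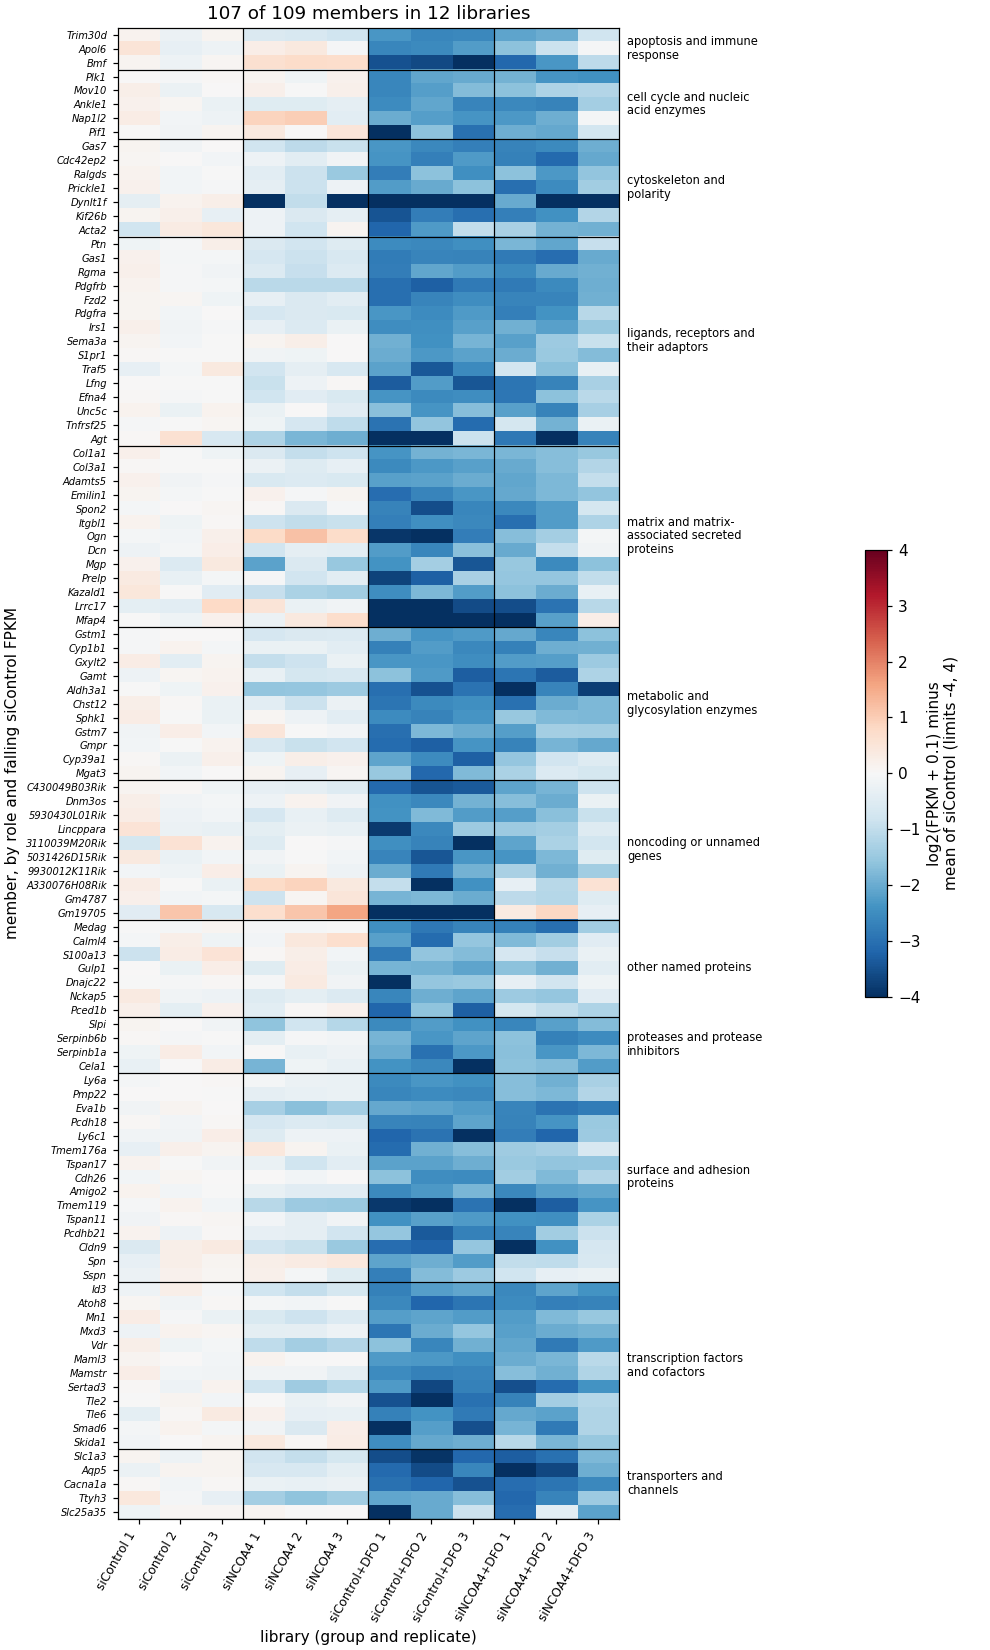
log2(FPKM + 0.1) of 107 of the 109 genes in 12 libraries, minus each gene's siControl mean, ordered by role (roles were assigned by hand from textbook knowledge). The siControl+DFO columns are blue throughout by selection, and replicate 3 of siNCOA4+DFO is the palest of its group.

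Of the 30 genes not called lower in siNCOA4+DFO, 7 had an adjusted p below 0.05 with a change under 2-fold, among them Col1a1, Slpi, Ptn, Trim30d, Ralgds and Ttyh3. Without siNCOA4+DFO replicate 3, 10 of the 30 met both limits, among them Cldn9, Trim30d, Ptn, Pcdhb21, Nckap5, Slpi, Ralgds, Gm4787 and Ttyh3. By role this made 14 of 15 for surface proteins, 14 of 14 for transcription factors and 12 of 15 for ligands and receptors, while matrix genes stayed at 8 of 13 and enzymes at 10 of 11. The 5 with the largest p were Kazald1, Dynlt1f, Dnajc22, Tnfrsf25 and Traf5. Kazald1, a secreted Kazal-domain protein related to insulin-like growth factor binding proteins, was at 6.35, 4.63 and 3.40 FPKM in siControl, 2.43, 1.88 and 1.70 in siNCOA4, 0.75, 1.28 and 0.901 in siControl+DFO and 1.43, 1.11 and 3.73 in siNCOA4+DFO. Its siNCOA4 libraries lay below siControl, and replicate 3 of siNCOA4+DFO lay above all of siNCOA4 (-0.12, standard error 0.39, adjusted p = 0.839). Dnajc22, a J-domain protein, was at 4.18, 5.49 and 3.88 FPKM in siNCOA4 and 3.36, 2.49 and 3.76 in siNCOA4+DFO, while siControl+DFO held 0, 1.40 and 1.48 (-0.49, standard error 0.78, adjusted p = 0.647). These p-values do not show that the genes were unchanged.

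How far siNCOA4 alone followed was described without a test, because siControl chose the genes. The siNCOA4 means were a median of 79.2% of siControl, with quartiles of 64.3 and 95.9%, where all genes tested had a median of 100.0%, and a value below 100% is favoured by the choice of genes high in siControl. The level was at most 50% of siControl in 13 genes and above 100% in 22. For 55 genes, or 50.5%, every siNCOA4 library lay below every siControl library, against 17.6% of all genes tested. For 4 genes, or 3.67%, every one lay above, against 14.9%. The lowest were Dynlt1f at 16.2%, Agt at 26.8% and Aldh3a1 at 33.9%, and the highest Gm19705 at 195%, Ogn at 188% and Bmf at 164%. By role, medians ran from 64.9% in ligands, receptors and their adaptors to 112.3% in the 3 genes of apoptosis and immune response. Receptors such as Pdgfrb, at 46.7%, and enzymes such as Aldh3a1 were thus among those that went down with siNCOA4, while Atoh8 at 95.9%, Plk1 at 103% and Cyp39a1, an oxysterol hydroxylase, at 105% stayed near siControl.

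**Figure D5:**
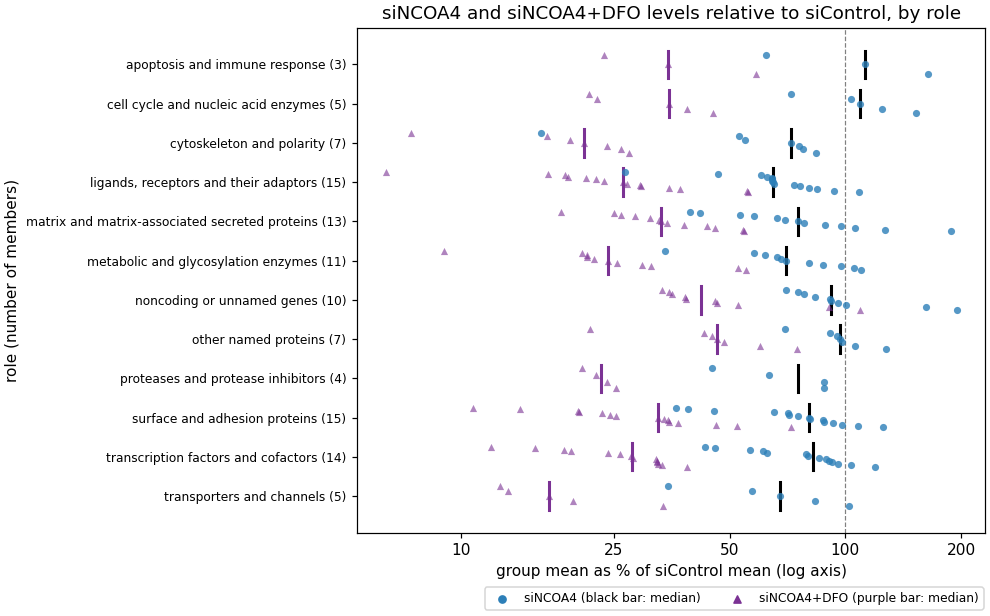
Mean FPKM in siNCOA4 (blue circles) and siNCOA4+DFO (purple triangles) as a percentage of the siControl mean, on a log axis, for each gene by role, with medians as bars. The siNCOA4 medians run from 64.9 to 112.3% and the siNCOA4+DFO medians from 16.9 to 46.3%.

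The combination of siNCOA4 and DFO left a median of 29.3% of the siControl level. Over replicates 1 to 3, the library medians were 22.2, 24.4 and 40.7%. In 99 genes, or 90.8%, all siNCOA4+DFO libraries lay below all siControl libraries, against 26.3% of all genes tested. The genes were picked for siControl values well above siControl+DFO, which favours this order, so these shares are a description. Set beside siControl+DFO, the combination stood higher in most of the genes. The siNCOA4+DFO mean exceeded the siControl+DFO mean in 97 genes and was below it in 12, and without replicate 3 it exceeded it in 84. Over the 107 genes not listed at 0 in siControl+DFO, siNCOA4+DFO stood at a median of 169.0% of siControl+DFO, or 135.8% without replicate 3. In 40 genes, or 36.7%, every siNCOA4+DFO library lay above every siControl+DFO library, against 14.7% of all genes tested. With replicates 1 and 2 alone the count was also 40, where the background for that comparison was 19.9%. Genes picked for low siControl+DFO values tend to be higher elsewhere, so these values are a description. In 10 genes, or 9.17%, all siNCOA4 libraries lay below siControl while all siNCOA4+DFO libraries lay above siControl+DFO, an order held by 0.788% of all genes tested.

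Some of the 109 lie near each other in the genome. Each was paired with the next of the 109 along its chromosome, whatever other genes lie between, and 11 pairs were within 500 kb. The same count was not made for other genes, so whether 11 is many was not tested. Among the pairs, Chst12, Lfng and Ttyh3 line up on chromosome 5 with gaps of 82.1 and 5.03 kb. Lfng and the sulfotransferase gene Chst12 were called lower in siNCOA4+DFO, whereas Ttyh3, of a family of chloride channels, was at 2.68, 2.24 and 2.62 FPKM in siNCOA4 and 0.717, 1.04 and 2.49 in siNCOA4+DFO and stayed under 2-fold (-0.96, adjusted p = 0.0469). Amigo2, an adhesion protein, and Pced1b overlap by 315 bases on opposite strands of chromosome 15, and the first was called lower (-1.86) and the second was not (-0.91).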

How the data were processed

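RNA-seq libraries of HT22 cells were prepared from total RNA by a strand-marking, low-input method and read as pairs. The authors deposited FPKM values for 24347 gene entries, 1 table per library. The submitters' processing notes name Trimmomatic 0.33, FastQC, HISAT2 2.1.0, featureCounts, edgeR and mm10, and the tool that wrote the FPKM is not given in the sources used here. Read depth per library is unknown from these files, no whole reads could be recovered, and no counting interval is given. The 4 entries that shared a name were left out.

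The 109 genes, their roles and the gene lists were chosen with earlier results of these data known. Since siControl and siControl+DFO chose the genes, only siNCOA4+DFO against siNCOA4 was tested. The 4 group means were modelled on log2(FPKM + 0.1) from the 12 libraries in limma 3.58.1 (R 4.3.3), with empirical Bayes moderation and a trend, for 11924 genes at 0.5 FPKM or more in at least 3 libraries, and p-values were adjusted over all of them. The fit was also run on simulated data with independent noise in each gene. Those data hold no shift shared by a whole library, so the run does not bear on siNCOA4+DFO replicate 3. Biological replicates are as labelled, and p-values measure the spread between them. Named genes were Lrrc17 and Mfap4, the 12 with the lowest share left, the 10 with the highest siControl FPKM, in siNCOA4+DFO against siNCOA4 the 5 largest falls and the 5 largest p, the 3 lowest and highest ratios of siNCOA4 to siControl, the 3 nearest to each limit, and up to 4 members of each gene list. Genes named beside these, to complete a role or a count, were chosen after their values were seen. Coordinates are those of RefSeq and GENCODE M21 on GRCm38, read with Python 3.11.15. A few genes that the rule names are not reported here. Alternatives are given in the closing section.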

Additional observations from a re-analysis of the deposited data

Results flagged for a closer look

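In 10 of the 109 genes, or 9.17% against 0.788% of all genes tested, every siNCOA4 library lay below every siControl library while every siNCOA4+DFO library lay above every siControl+DFO library, so that Ncoa4 siRNA went with opposite directions in the absence and presence of DFO. The difference between the 2 directions was not tested, and the genes were selected for high siControl and low siControl+DFO values, which favours this order. Values are given for 9 of the 10. As a percentage of the siControl+DFO mean, siNCOA4+DFO stood at 396% for Traf5 and 363% for C430049B03Rik. It stood at 246% for Nckap5, 207% for Pmp22, 204% for Trim30d and 201% for Ptn. For the collagen genes Col3a1 and Col1a1 it was 168% and 127%, and for the tetraspanin Tspan17 147%. In the same order, siNCOA4 without DFO stood at 64.3, 75.3, 69.5, 80.8, 62.0, 64.9, 78.1, 58.0 and 71.2% of siControl. Replicate 3 was the highest siNCOA4+DFO library in all of these genes except Tspan17, where the 3 libraries were at 4.18, 3.87 and 4.01 FPKM.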

How the results depend on the processing

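The number of genes by the selection rule moved to 69 with a limit of 20% of siControl, of which 53 were called lower in siNCOA4+DFO. With a limit of 33% it moved to 224, of which 140 were called lower. Among all genes tested, 289 were called lower with a pseudocount of 1 in place of 0.1, and 2339 by adjusted p alone, against 457. With each library omitted in turn, the genes called lower numbered between 66 and 88 of the 109 and between 395 and 545 of all genes, and the median log2 fold change of the 109 lay between -1.65 and -1.31. The number selected lay between 112 and 129 with each siControl or siControl+DFO library omitted, the siNCOA4 libraries having no part in the selection. For the 109, the lowest count came without siNCOA4+DFO replicate 1 and the highest without replicate 3. With a pseudocount of 1 the median was -1.14 and 67 of the 109 were called. Other alternatives were a pseudocount of 0.01, no filter on low values, a minimum of 2 FPKM and scaling by median of ratios. They also took in the 6 siNCOA4 libraries alone, moderation without a trend and siControl limits of 1 and 5 FPKM. Under these, the count of genes called stayed within 1.5 times of 79 and the median lay between -1.50 and -1.43. The siControl limits of 1 and 5 FPKM also changed the set, to 139 and 73 genes, of which 89 and 60 were called. Leaving out the 4 genes with at least 20% of their 75-base windows in another gene, an alternative chosen after seeing the data, gave 77 calls of 105. Of the 79 calls, 60 held under every fit and 19 were lost in at least 1. Of 56 named genes, 45 kept direction and side of the threshold in all 20 fits. Reversals were limited to genes not called: over the fits that omit a library, the log2 fold change of Dynlt1f ran from -1.45 to 1.10 (highest without siNCOA4 replicate 2), that of Kazald1 from -0.61 to 0.22, that of Tnfrsf25 from -0.66 to 0.15 and that of Traf5 from -0.60 to 0.091, the last 3 lowest without siNCOA4+DFO replicate 3 and highest without its replicate 2. The cause was not tested.

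With the replicate number as a replicate block, 79 of the 109 genes and 458 of all genes were called lower, the 79 being the same genes, and the median was -1.46. Same-numbered siNCOA4 and siNCOA4+DFO libraries did not deviate together in every pair (correlations across genes of 0.10, -0.05 and 0.0009), so the numbers were not taken to pair the samples. FPKM keep no read depth, which limits what can be said of genes at or near 0.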
